A study of Mus musculus with 2 samples.

Results

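The glucocorticoid receptor gene Nr3c1 and 9 genes known to be induced through it were described in leukocytes sorted from mouse hearts. The 9 target genes were Tsc22d3, Fkbp5, Per1, Dusp1, Sgk1, Klf9, Ddit4, Txnip, and Zbtb16. They were taken by gene symbol from the count tables of both libraries, which together listed 23946 genes, with 22780 in the control and 21523 in the ISO library. All 10 genes were listed in both tables. The question was how a readout of the systemic stress response differed between lymphoid and myeloid cells of the heart.

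Glucocorticoids are steroid hormones that the adrenal cortex releases under stress. In the resting cell their receptor is held in the cytoplasm by chaperones of the HSP90 family. After binding the hormone it moves to the nucleus, where it binds DNA as a dimer and induces or represses genes. In leukocytes it is known for dampening inflammation, for causing the death of many lymphocytes, and for prolonging the life of neutrophils. Several of its targets, such as Dusp1, Per1, Ddit4, and Txnip, also respond to other signals, including cAMP, tissue handling, low oxygen, and glucose.

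The libraries came from female wild-type C57BL6 mice (C57BL/6J in the study's methods) that received a single intraperitoneal injection 24 hours before the hearts were taken. The ISO group, labelled TTS for Takotsubo syndrome, received isoproterenol (ISO), a β-adrenergic agonist, at 200 mg/kg, and the control group received vehicle. The labels list the ISO dose under each sample, so the control is known by its title and the study's methods. Live CD45+ cells, that is leukocytes, were sorted after collagenase digestion, the cells of 3 hearts were pooled per group, and 15000 cells were loaded for 3′ single-cell RNA-Seq. The protocol names no glucocorticoid, and hormone levels were not analysed here. With 1 library per group, no difference below has a replicate check, and no test or p-value is given. The intervals, at 95%, cover counting error only, and differences between mice cannot be told apart from those between treatments.

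After the cell filters, 5641 of 5927 control barcodes and 5437 of 5514 ISO barcodes were kept, with a median of 4790 and 8537 unique molecular identifiers (UMIs) per cell. Cells were assigned to 8 classes by lists of marker genes that held none of the 10 genes. The lymphoid classes were B cells, with 535 control and 15 ISO cells, T cells, with 151 and 46, NK cells, with 401 and 29, and group 2 innate lymphoid cells (ILC2s), with 189 and 116. The myeloid classes were neutrophils, with 136 and 128 cells, monocytes, with 71 and 1794, macrophages, with 944 and 737, and dendritic cells (DCs), with 143 and 409. Each class held UMIs of all its own markers in both libraries, except that Ly6g, a defining neutrophil marker, was at 0 in the neutrophil class of both, where the other 6 of its 7 markers were detected. Barcodes with markers of 2 lineages, 42.7% of control and 22.4% of ISO cells, were left out. They included 1044 control and 39 ISO barcodes closest to B cells, whose Ccr7, on the DC list, stood at 683 and 329 CPM (counts scaled to the same total of UMIs), against 73.4 and 59.5 CPM for the other DC markers together. The summed level of the 8 macrophage markers was higher in the ISO library in each lymphoid class and in neutrophils, for example 527 vs. 2018 CPM in B cells, 795 vs. 1810 CPM in T cells, 285 vs. 687 CPM in NK cells, 334 vs. 1195 CPM in ILC2s, and 707 vs. 1911 CPM in neutrophils. It stood at 31211 and 17788 CPM in the macrophages themselves. The part of these transcripts in the results below was not tested. The libraries shared 15 barcodes, of which 6 control and 5 ISO cells were in a class.

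For each gene, UMIs were summed per class and library and given as CPM of all UMIs of that class. The log2 ratio of ISO over control was computed after adding 0.5 UMI to each sum. A gene with at least 20 UMIs over both libraries was called higher or lower where its log2 ratio was at least 1 in size and its counting interval excluded 0. The levels of different genes are not compared, since only the 3′ end of each transcript was counted.

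The receptor and its targets moved in different directions between the libraries. Across the 80 pairs of gene and class, 36 were called higher or lower. Ddit4 and Zbtb16 in B cells and Zbtb16 in DCs had too few UMIs to be called. From 4.32% to 21.2% of all genes were called per class in a single direction. Both directions count together for the 36, as with 5.87% higher and 4.32% lower in B cells and 21.2% and 12.3% in neutrophils. Fkbp5 was called higher in 5 and Ddit4 in 6 of the 8 classes, in both lineages. Nr3c1, Tsc22d3, Per1, and Zbtb16 were called lower mainly in myeloid classes. Dusp1 was the only gene of the 10 whose ratio was above 0 in all 4 lymphoid classes and below 0 in all 4 myeloid classes, although NK cells and ILC2s were below 0 under 3 and 2 alternatives, respectively. Over the 10 genes, the mean log2 ratio was 0.25 (0.07 to 0.44) in lymphoid and -0.38 (-0.47 to -0.29) in myeloid classes, a difference of 0.63 (0.43 to 0.84). With barcodes of 2 lineages kept, the lymphoid mean was 0.0567 (-0.08 to 0.19), and the difference was 0.38 (0.23 to 0.53). Without the 15 ISO B cells, the lymphoid mean was 0.07 (-0.09 to 0.22), and the difference was 0.45 (0.27 to 0.63). Without neutrophils, the myeloid mean was -0.21 (-0.31 to -0.11). Without Zbtb16, which had 2 control UMIs and 0 ISO UMIs in B cells, the lymphoid mean was 0.31 (0.16 to 0.45) and the difference 0.51 (0.35 to 0.67).

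**Figure D1:**
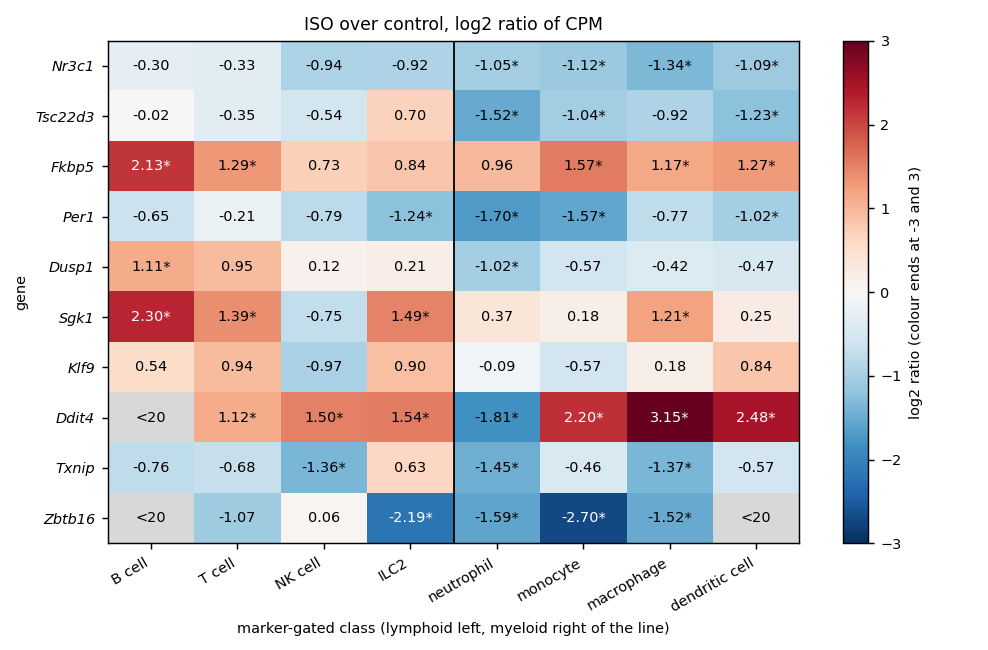
Log2 ratio of ISO over control CPM for each of the 10 genes (rows) in the 8 marker-gated classes (columns), with lymphoid classes left and myeloid classes right of the line. An asterisk marks a call, and grey cells had fewer than 20 UMIs. Fkbp5 is above 0 in every class, and Ddit4 stands at 3.15 in macrophages and at -1.81 in neutrophils.

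Nr3c1 encodes the receptor itself and lies on chromosome 18. In the control library its level was 466 CPM in ILC2s, 258 CPM in NK cells, 245 CPM in T cells, and 167 CPM in B cells. In the myeloid classes it was 276 CPM in neutrophils, 203 CPM in macrophages, 137 CPM in monocytes, and 136 CPM in DCs. ILC2s stood above all other classes in this order, whereas the intervals of neutrophils, NK cells, and T cells overlapped, as did those of B cells, monocytes, and DCs. In the ISO library, the level was 246 CPM in ILC2s, 131 CPM in NK cells, 195 CPM in T cells, and 129 CPM in B cells. Myeloid levels were 133 CPM in neutrophils, 79.9 CPM in macrophages, 63.4 CPM in monocytes, and 64.2 CPM in DCs. Thus Nr3c1 was lower in the ISO library in all 8 classes, except that in B cells, with 10 ISO UMIs, the ratio turned to 0.11 when each cell was given equal weight and to 0.00 when cells were thinned to 1000 UMIs before summing.

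All 4 myeloid classes were called lower for Nr3c1, and no lymphoid class was, but this split did not hold with barcodes of 2 lineages kept, where NK cells stood at -1.18, monocytes at -0.94, and DCs at -0.97. The log2 ratios were -1.34 (-1.49 to -1.20) in macrophages, -1.12 (-1.43 to -0.78) in monocytes, -1.09 (-1.35 to -0.82) in DCs, and -1.05 (-1.42 to -0.68) in neutrophils. ILC2s, at -0.92 (-1.18 to -0.67), and NK cells, at -0.94 (-1.66 to -0.35), came close to the threshold, while T cells stood at -0.33 (-0.75 to 0.07). The mean over the 4 lymphoid classes was -0.62 and that over the myeloid classes was -1.15, a difference of 0.53 (0.20 to 0.85), which was 0.12 with barcodes of 2 lineages kept. The DC ratio was -0.50 when cells were thinned to 1000 UMIs before summing. Averaged over classes with equal weight, the Nr3c1 level was higher in the lymphoid lineage. The gap on the log2 scale was 0.56 (0.42 to 0.69) for control cells and 1.09 (0.79 to 1.38) for ISO cells. Single classes did not all follow this order. Control neutrophils, at 276 CPM, ranked second after ILC2s, at 466 CPM, and control macrophages, at 203 CPM, stood above B cells, at 167 CPM. ISO neutrophils, at 133 CPM, stood close to NK cells, at 131 CPM, and B cells, at 129 CPM.

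Motifs of several factors stood in the proximal promoters of 4 targets, which are shown because these genes differed in how they moved. The stretches that carry the motifs are given 5′ to 3′ with every motif found in capitals. The sequences are from RefSeq on GRCm38.p6 and end at or before the base preceding an annotated transcript start. Motifs were searched on both strands in the 250 bases before each of 32851 starts, and 8 of the 10 genes matched 16 of these windows. The palindrome to which the receptor dimer binds, AGAACA followed by any 3 bases and the reverse complement TGTTCT, was in 3 windows, or 0.00913%. Sgk1 has several annotated starts, and 1 of its windows held the palindrome, beginning 189 bases before the start of that window's transcript. No other Sgk1 window held it, including the one further downstream at chr10:21994416-21994665. AGAACA by itself was in 16.1% of windows. The cAMP response element TGACGTCA was in 1.55% of windows and, among these genes, in that of Dusp1, and its shorter form TGACG was in 17.8%. The E-box CACGTG, which clock factors and basic helix-loop-helix proteins bind, was in 6.02% of windows, including 1 window each of Sgk1, Per1, Dusp1, and Fkbp5. In the Sgk1 stretch, the first capitals join an E-box and an overlapping copy of AGAACA on the other strand. A match in these letters is not evidence of binding, and most sites of the receptor lie outside such windows. The stretches are chr10:21993640-21993889 on the plus strand for Sgk1, chr17:28486150-28486399 on the minus strand for Fkbp5, chr17:26508593-26508622 on the minus strand for Dusp1, and chr11:69098769-69098798 on the plus strand for Per1.
Sgk1: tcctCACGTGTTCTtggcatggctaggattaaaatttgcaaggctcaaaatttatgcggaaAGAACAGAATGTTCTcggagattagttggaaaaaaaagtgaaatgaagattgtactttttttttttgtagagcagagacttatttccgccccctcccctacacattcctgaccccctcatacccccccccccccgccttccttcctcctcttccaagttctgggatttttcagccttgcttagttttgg
Fkbp5: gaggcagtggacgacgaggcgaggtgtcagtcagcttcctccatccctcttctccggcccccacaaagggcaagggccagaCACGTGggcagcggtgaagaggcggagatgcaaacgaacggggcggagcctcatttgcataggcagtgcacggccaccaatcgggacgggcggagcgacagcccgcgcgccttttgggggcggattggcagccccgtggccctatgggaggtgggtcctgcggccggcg
Dusp1: gggcgggTGACGTCAccgcccggtCACGTG
Per1: ccagcacccaagtcCACGTGcagggatgtg

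Tsc22d3, on chromosome X from 140539528 to 140600659, encodes GILZ, a leucine zipper protein that carries part of the anti-inflammatory action of glucocorticoids. Its level was about the same in control and ISO B cells, at 767 vs. 750.1 CPM. In T cells it was 303 vs. 237 CPM, in NK cells 291 vs. 197 CPM, and in ILC2s 159 vs. 257 CPM. In every myeloid class it was lower in the ISO library, at 742 vs. 258 CPM in neutrophils, 348 vs. 184 CPM in macrophages, 270.4 vs. 115 CPM in DCs, and 218 vs. 106 CPM in monocytes. B cells and neutrophils therefore shared the highest control levels, with overlapping intervals, and B cells alone stood at the top in the ISO library. Tsc22d3 was called lower in neutrophils, at a log2 ratio of -1.52 (-1.77 to -1.28), in DCs, at -1.23 (-1.42 to -1.04), and in monocytes, at -1.04 (-1.29 to -0.77), and macrophages stood at -0.92 (-1.02 to -0.82). The monocyte ratio was under 1 in size under 4 alternatives, down to -0.82, and that of DCs under 1, at -0.95. The only lymphoid ratio above 0 was that of ILC2s, at 0.70 (0.39 to 1.01), and it was -0.01 when barcodes with markers of 2 lineages were kept. The lineage means were -0.05 (-0.25 to 0.14) and -1.18 (-1.28 to -1.08), a difference of 1.12 (0.90 to 1.34). With barcodes of 2 lineages kept, all 4 lymphoid ratios were below 0, the lymphoid mean was -0.38, and the difference was 0.76.

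Fkbp5, on chromosome 17 from 28399094 to 28517527, encodes a cochaperone of HSP90 that lowers the receptor's affinity for hormone and so closes a negative feedback loop. In the control library it ranged from 12.99 CPM in B cells to 53.8 CPM in ILC2s, and in the ISO library from 51.7 CPM in B cells to 96.0 CPM in ILC2s. Among myeloid classes it was 33.2 vs. 74.9 CPM in macrophages, 17.7 vs. 54.8 CPM in monocytes, 21.4 vs. 52.3 CPM in DCs, and 32.1 vs. 64.3 CPM in neutrophils. Fkbp5 was the only gene of the 10 whose ratio was above 0 in all 8 classes in the main comparison. It stayed above 0 under all 17 alternatives, some of which only left classes or a gene out. It was called higher in B cells, T cells, monocytes, macrophages, and DCs. The log2 ratio was 1.57 (0.78 to 2.64) in monocytes, 1.29 (0.37 to 2.20) in T cells, 1.27 (0.78 to 1.83) in DCs, and 1.17 (0.95 to 1.39) in macrophages. The B cell call, at 2.13 (0.01 to 3.54), rests on 4 ISO UMIs. It was lost, at 1.31 (-0.48 to 2.45), when Ccr7 was left out of the DC markers, which left 1727 control and 35 ISO B cells. When cells were thinned to 1000 UMIs before summing, B cells stood at 0.62, T cells at 0.81, monocytes at 0.83, and DCs at 0.81, which ended these calls. Neutrophils, ILC2s, and NK cells stood at 0.96 (0.15 to 1.95), 0.84 (0.31 to 1.37), and 0.73 (-0.25 to 1.51), respectively. The lineage means were 1.25 (0.77 to 1.73) in lymphoid and 1.24 (0.92 to 1.57) in myeloid classes, and their difference of 0.01 had an interval from -0.58 to 0.59.

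Dusp1, on chromosome 17 from 26505590 to 26562128, encodes a phosphatase that switches off p38 and JNK and is induced both by glucocorticoids and by stress. In lymphoid classes its level was 128 vs. 272 CPM in B cells, 596 vs. 1148 CPM in T cells, 651 vs. 705 CPM in NK cells, and 866 vs. 999 CPM in ILC2s. In myeloid classes it was 4649.9 vs. 2294 CPM in neutrophils, 2084 vs. 1561 CPM in macrophages, 2029.8 vs. 1369 CPM in monocytes, and 859 vs. 620.3 CPM in DCs. The level was thus higher in the ISO library in each lymphoid class, though by little in NK cells and ILC2s, and lower in each myeloid class. Neutrophils stood above all other classes in both libraries. B cells, at 1.11 (0.36 to 1.73), were called higher, with 21 ISO UMIs, and neutrophils, at -1.02 (-1.11 to -0.93), were called lower. The neutrophil ratio was under 1 in size under 7 alternatives, down to -0.84, and the B cell ratio under 5, down to 0.42. T cells stood at 0.95 (0.75 to 1.14), and ILC2s and NK cells at 0.21 (0.06 to 0.35) and 0.12 (-0.17 to 0.39). The NK cell interval included 0, and the T cell ratio was 0.08 with barcodes of 2 lineages kept. Macrophages, monocytes, and DCs stood at -0.42 (-0.45 to -0.38), -0.57 (-0.65 to -0.49), and -0.47 (-0.56 to -0.38). Without Ccr7 among the DC markers, B cells stood at 0.69 (0.16 to 1.13) and T cells at 1.13 (0.96 to 1.31), so that the call passed from B to T cells. The gap between lineages was narrower in the ISO library, where the lymphoid mean level was below the myeloid one by 0.94 on the log2 scale, against 2.15 in the control. The difference between the lineage means, 0.60 and -0.62, was 1.22 (1.03 to 1.402).

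**Figure D2:**
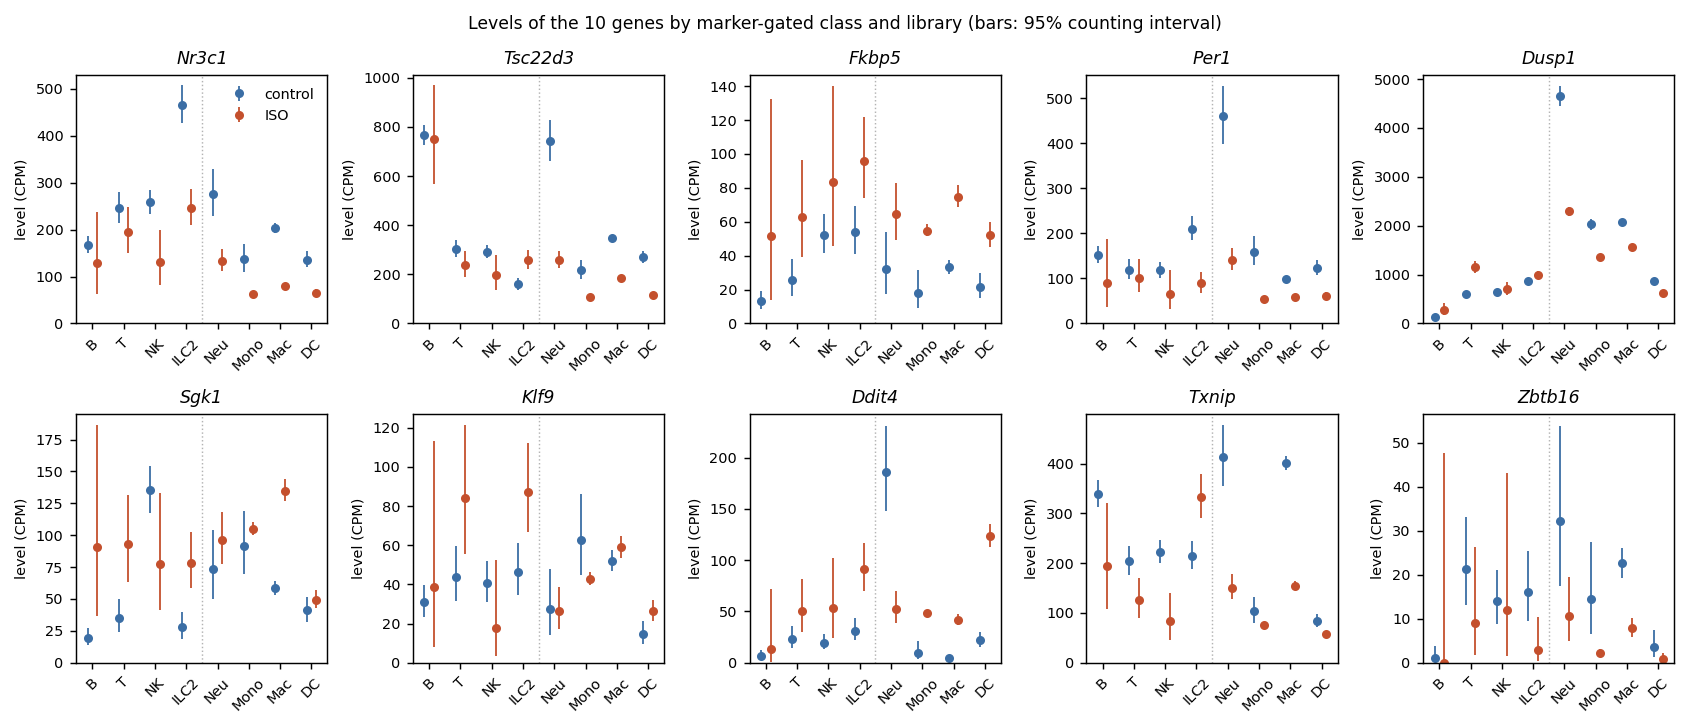
Level (CPM, linear axes that start at 0) of each of the 10 genes in the 8 classes, control in blue and ISO in red, with 95% counting intervals as bars and lymphoid classes left of the dotted line. Nr3c1 and Per1 are lower in the ISO library in each class, Fkbp5 is higher in each class, and the ISO B cell intervals come from 15 cells.

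After each cell was thinned to 1000 UMIs, which left out 3 control B cells, 1 control T cell, and 1 control NK cell, the share of cells with a UMI was compared. For Dusp1, it was 86.8% (79.9 to 92.0) of control and 85.9% (78.7 to 91.4) of ISO neutrophils, and 97.1% and 99.2% without thinning. The shares overlapped within counting error, whereas the level was lower in ISO neutrophils. Dusp1 was found in 21.3% (15.1 to 28.8) of control and 47.8% (32.9 to 63.1) of ISO T cells, and in 61.6% and 71.7% without thinning. Tsc22d3 went from 50% (41.3 to 58.7) to 26.6% (19.1 to 35.1) of neutrophils and from 9.52% (5.74 to 14.6) to 22.4% (15.2 to 31.1) of ILC2s. The unthinned shares for Tsc22d3 were 80.1% and 71.9% of neutrophils and 44.4% and 56.0% of ILC2s. Nr3c1 was found in 18.3% (10.1 to 29.3) of control and 5.35% (4.36 to 6.50) of ISO monocytes, and in 63.4% and 40.1% without thinning. The median depth was 2781.5 and 5141.5 UMIs in control and ISO neutrophils, 5207 and 4947.5 in T cells, 5608 and 3769 in ILC2s, and 8992 and 7844.5 in monocytes. No class is known to lack these 3 genes, so free RNA could not be set apart. The lowest control shares were 9.77% for Dusp1 in B cells, 9.52% for Tsc22d3 in ILC2s, and 10.5% for Nr3c1 in DCs.

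Per1, on chromosome 11 from 69095217 to 69109960, encodes a repressor of the circadian clock that glucocorticoids and cAMP both induce. Its control level was 459 CPM in neutrophils, 211 CPM in ILC2s, 159.6 CPM in monocytes, 152 CPM in B cells, 123 CPM in DCs, 119 CPM in T cells, 118 CPM in NK cells, and 98.7 CPM in macrophages. The ISO levels in the same order were 141, 88.7, 54.1, 90.5, 60.6, 102, 65.7, and 58.0 CPM. Neutrophils were therefore highest in the control, and each class was lower in the ISO library, except that B and T cells turned to 0.47 and 0.79 on the log2 scale when cells were thinned to 1000 UMIs before summing. Per1 was called lower in neutrophils, at -1.70 (-2.03 to -1.38), in monocytes, at -1.57 (-1.86 to -1.25), in ILC2s, at -1.24 (-1.68 to -0.84), and in DCs, at -1.02 (-1.29 to -0.74), where 4 alternatives took it under 1 in size, down to -0.90. T cells, at -0.21 (-0.82 to 0.34), and B cells, at -0.65 (-2.08 to 0.31), had intervals that included 0. The lineage means were -0.72 in lymphoid and -1.26 in myeloid classes, a difference of 0.54 (0.14 to 0.94), which was 0.29 with barcodes of 2 lineages kept.

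Sgk1, on chromosome 10 from 21882184 to 21999903, encodes a kinase that controls ion transport and survival. It was higher in the ISO library in B cells, at 19.5 vs. 90.5 CPM, in T cells, at 35.4 vs. 92.9 CPM, in ILC2s, at 27.8 vs. 78.5 CPM, and in macrophages, at 58.4 vs. 135 CPM. NK cells, which held the highest control level, stood at 135 vs. 77.6 CPM. Monocytes, neutrophils, and DCs held 91.9 vs. 105 CPM, 73.5 vs. 96.0 CPM, and 41.1 vs. 49.3 CPM. The order of the classes thus differed between libraries, with NK cells at the top in the control and macrophages at the top in the ISO library. The calls were 2.30 (0.80 to 3.40) in B cells, with 7 ISO UMIs, 1.49 (0.84 to 2.19) in ILC2s, 1.39 (0.64 to 2.15) in T cells, and 1.21 (1.04 to 1.37) in macrophages. The B cell call was lost, at 0.54, with barcodes of 2 lineages kept, the ILC2 call, at 0.50, when cells were thinned to 1000 UMIs before summing, and the T cell call, at 0.67, with equal weight for each cell. NK cells, at -0.75 (-1.73 to 0.00), were not called, and their ratio was 0.33 with barcodes of 2 lineages kept. The lineage means were 1.11 in lymphoid and 0.50 in myeloid classes, a difference of 0.60 (0.14 to 1.07), which was 0.21 with barcodes of 2 lineages kept. This difference was 0.21, with a lymphoid mean of 0.71, without B cells, and 0.075 with equal weight for each cell. It turned to -0.43, with means of 0.91 and 1.34, when cells were thinned to 1000 UMIs before summing.

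Klf9, on chromosome 19 from 23141226 to 23168134, encodes a zinc finger repressor that is a direct target of the receptor in many tissues. It had 12 to 719 UMIs per class and library outside B and NK cells, where the ISO library held 3 UMIs each. It was not called in any class, at 46.6 vs. 87.3 CPM in ILC2s, 43.9 vs. 83.9 CPM in T cells, 14.5 vs. 26.3 CPM in DCs, 52.1 vs. 58.9 CPM in macrophages, 62.9 vs. 43.0 CPM in monocytes, and 40.6 vs. 17.9 CPM in NK cells. The ratio nearest in size to the threshold was that of NK cells, at -0.97 (-3.50 to 0.43), followed by 0.94 (0.19 to 1.66) in T cells, 0.90 (0.35 to 1.47) in ILC2s, and 0.84 (0.22 to 1.55) in DCs. When cells were thinned to 1000 UMIs before summing, NK cells turned to 1.15, DCs to -0.60, and neutrophils, at -0.09 before, to 2.20. T cells passed the threshold, at 1.06 (0.37 to 1.72), when Ccr7 was left out of the DC markers. Without thinning, the lineage means were 0.35 (-0.24 to 0.94) in lymphoid and 0.09 (-0.23 to 0.40) in myeloid classes, and their difference was 0.26 (-0.41 to 0.93). With cells thinned to 1000 UMIs before summing, the lymphoid mean was 1.55, the myeloid mean 0.30, and the difference 1.25.

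Ddit4, on chromosome 10 from 59949669 to 59951834, encodes REDD1, an inhibitor of mTORC1 that glucocorticoids, low oxygen, and the integrated stress response induce. Its level was 4.67 vs. 42.0 CPM in macrophages, 9.67 vs. 48.2 CPM in monocytes, and 22.0 vs. 124 CPM in DCs. In lymphoid classes it was 31.4 vs. 91.6 CPM in ILC2s, 19.7 vs. 53.7 CPM in NK cells, and 23.6 vs. 50.9 CPM in T cells. The summed level in neutrophils went the other way, from 186 CPM, the highest control level of any class, to 52.7 CPM in the ISO library. The control range over classes was thus wide, whereas in the ISO library the intervals of NK cells, neutrophils, T cells, and monocytes overlapped. The 81 control UMIs of neutrophils lay in 19 of 136 cells, and the 50 ISO UMIs in 28 of 128 cells. After thinning to 1000 UMIs, a UMI was found in 6.62% (3.07 to 12.2) of control and 3.91% (1.28 to 8.88) of ISO neutrophils. The lower sum therefore does not show that neutrophils in general held less Ddit4. The call in macrophages, a log2 ratio of 3.15 (2.67 to 3.71), was the largest in size of all 36, and those in DCs and monocytes were 2.48 (2.02 to 3.01) and 2.20 (1.19 to 3.77). ILC2s, NK cells, and T cells were called higher at 1.54 (0.93 to 2.19), 1.505 (0.19 to 2.56), and 1.12 (0.11 to 2.09), and neutrophils were called lower at -1.81 (-2.36 to -1.29). In B cells, 13 control UMIs and 1 ISO UMI fell under the minimum. The T cell call was lost, at 0.39, with equal weight for each cell, and the NK cell call, at 0.43, without the top 5% of barcodes by UMIs. The lineage means of 1.39 and 1.504 differed by -0.11 (-0.91 to 0.68), but the myeloid mean joins neutrophils with 3 classes that went the other way. Without neutrophils it was 2.61, and the difference was -1.22.

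Txnip, on chromosome 3 from 96557957 to 96561883, encodes a thioredoxin-binding protein that restrains glucose uptake and is also induced by glucose itself. In myeloid classes its level was 413 vs. 151 CPM in neutrophils, 400.2 vs. 155 CPM in macrophages, 103 vs. 75.4 CPM in monocytes, and 84.0 vs. 56.8 CPM in DCs. In lymphoid classes it was 339 vs. 194 CPM in B cells, 222 vs. 83.6 CPM in NK cells, 204 vs. 126 CPM in T cells, and 215 vs. 333 CPM in ILC2s. ILC2s alone held more Txnip in the ISO library, at 0.63 (0.36 to 0.90), and they had the highest ISO level of any class, although the ratio was -0.04 when barcodes with markers of 2 lineages were kept. When cells were thinned to 1000 UMIs before summing, T cells turned to 0.44 and B cells to 0.03. The lymphoid mean was then 0.05. Txnip was called lower in neutrophils, at -1.45 (-1.78 to -1.13), in macrophages, at -1.37 (-1.48 to -1.27), and in NK cells, at -1.36 (-2.30 to -0.64). The B cell ratio of -0.76 (-1.65 to -0.07) was 0.13 without Ccr7 among the DC markers. The lineage means of -0.54 and -0.96 differed by 0.42 (0.09 to 0.75), or by 0.26 without neutrophils. Arrdc4, another gene that glucose induces, was called higher in ILC2s, at 1.66, and stood at 0.80 in macrophages and -0.24 in neutrophils.

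Zbtb16, on chromosome 9 from 48654297 to 48836222, encodes PLZF, a transcription factor of innate-like lymphocytes and their precursors that glucocorticoids also induce. It was sparse, with 0 to 174 UMIs per class and library. In the control library its level was 32.1 CPM in neutrophils, 22.6 CPM in macrophages, 21.4 CPM in T cells, 16.1 CPM in ILC2s, 14.5 CPM in monocytes, and 13.96 CPM in NK cells. The ISO levels were 7.85 CPM in macrophages, 8.99 CPM in T cells, 2.91 CPM in ILC2s, 2.33 CPM in monocytes, 11.9 CPM in NK cells, and 10.5 CPM in neutrophils. It was called lower in monocytes, at -2.70 (-3.71 to -1.41), in ILC2s, at -2.19 (-5.62 to -0.41), with 2 ISO UMIs, in neutrophils, at -1.59 (-2.94 to -0.33), and in macrophages, at -1.52 (-1.99 to -1.08). The neutrophil ratio was -0.81 when cells were thinned to 1000 UMIs before summing. B cells held 2 control UMIs and 0 ISO UMIs and give no fold, and the lymphoid mean of Zbtb16 is therefore not given. Its myeloid mean was -1.97 (-2.59 to -1.36), and without Zbtb16 the mean over the other 9 genes was -0.20 (-0.28 to -0.13) in myeloid classes.

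**Figure D3:**
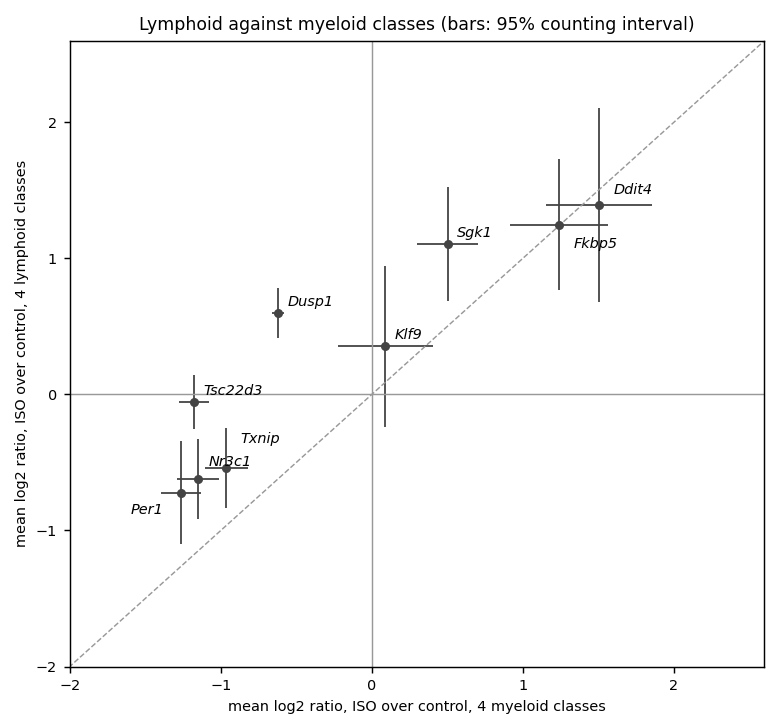
Mean log2 ratio of ISO over control in the 4 lymphoid classes (vertical axis) against that in the 4 myeloid classes (horizontal axis) for 9 genes, with 95% counting intervals as bars; Zbtb16 is left out, since it had 2 control UMIs and 0 ISO UMIs in B cells. Points on the dashed line have equal means. Fkbp5 lies near it at 1.25 on the vertical axis. Ddit4, at 1.39 on the vertical axis, also does, with a horizontal value that joins neutrophils at -1.81 with macrophages, DCs, and monocytes at 3.15, 2.48, and 2.20. Dusp1 is at 0.60 on the vertical and -0.62 on the horizontal axis.

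The means by lineage thus fell into groups. Fkbp5 was higher in the ISO library in both, with a difference whose interval included 0. Ddit4 was higher in both means, where neutrophils alone had a ratio below 0, with the control UMIs of that class in 19 of 136 cells. Sgk1 was higher in both means, with the larger mean in lymphoid cells, and Nr3c1, Per1, and Txnip were lower in both, with the larger size in myeloid cells. NK cells went the other way for Sgk1, at -0.75, as did ILC2s for Txnip, at 0.63. With barcodes of 2 lineages kept, the differences of Sgk1, Nr3c1, Per1, and Txnip narrowed to 0.21, 0.12, 0.29, and 0.30, respectively. The Sgk1 difference was also 0.21 without B cells. It was 0.075 with equal weight for each cell and -0.43 when cells were thinned to 1000 UMIs before summing. Under that thinning, the lymphoid mean of Txnip was 0.05. Tsc22d3 had a lymphoid mean near 0 and a lower myeloid mean. Dusp1 had means of opposite sign, with a difference of 0.89 when barcodes of 2 lineages were kept. In the main comparison, the difference between lineages was above 0, with an interval that excluded 0, for Nr3c1, Tsc22d3, Per1, Dusp1, Sgk1, and Txnip. Fewer cells of a state and less RNA per cell cannot be told apart in sums over a class.

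By class, the calls were read beside the share of all genes that the same rule called. In B cells, 3 of 8 genes with enough UMIs were called higher and 0 lower, where 5.87% of 7822 genes were called higher and 4.32% lower. In T cells, 3 of 10 were called higher and 0 lower, against 10.4% and 9.96%, and in NK cells 1 and 1, against 6.12% and 8.4%. In ILC2s, 2 were called higher, Sgk1 and Ddit4, and 2 lower, Per1 and Zbtb16, against 12.6% and 7.61%. Neutrophils were the class with the most calls in 1 direction, since 7 of 10 were called lower and 0 higher, against 12.3% and 21.2% of 5964 genes. In monocytes, 2 were called higher and 4 lower, against 6.96% and 12.7%, in macrophages 3 and 3, against 7.53% and 16.9%, and in DCs 2 and 3 of 9, against 5.1% and 9.66%. The median log2 ratio of the genes with enough UMIs was 0.26 in B cells, 0.37 in T cells, and 0.66 in ILC2s, where that of all genes was -0.05, -0.03, and 0.06. In NK cells it was -0.65, against -0.17. The myeloid medians were -1.25 in neutrophils, -0.59 in macrophages, -0.57 in monocytes, and -0.47 in DCs, against 0.10, -0.21, -0.22, and -0.08 for all genes.

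Monocytes and macrophages made up different parts of the 2 libraries, so they were also counted as 1 class of mononuclear phagocytes. A best marker ratio within a factor of 2 of the minimum for joining a class was found in 408 of 1794 ISO monocytes and 210 of 737 ISO macrophages. These counts do not compare the monocyte and macrophage ratios of a cell, and how sharply the gate splits these classes was not tested. In the joined class, Txnip stood at 378 vs. 98.5 CPM, a log2 ratio of -1.94 (-2.02 to -1.86) that exceeded that of either class in size. Nr3c1 stood at -1.54 (-1.64 to -1.44), Tsc22d3 at -1.39 (-1.46 to -1.32), and Zbtb16 at -2.48 (-2.86 to -2.11). Ddit4 was 5.05 vs. 46.4 CPM, a log2 ratio of 3.18 (2.76 to 3.68). Fkbp5, at 0.92 (0.73 to 1.11), and Sgk1, at 0.90 (0.76 to 1.04), were above 0 but did not reach the threshold. Per1, at -0.90 (-1.03 to -0.78), did not reach it either, unlike in monocytes.

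Lists of related genes put these values in context. Their counts are read beside the shares of all genes called. In B cells, 5.87% of all genes were called higher and 4.32% lower, against 10.4% and 9.96% in T cells. NK cells had 6.12% and 8.4%, ILC2s 12.6% and 7.61%, and neutrophils 21.2% and 12.3%. Monocytes had 6.96% and 12.7%, macrophages 7.53% and 16.9%, and DCs 5.1% and 9.66%. Of the receptor machinery, which comprised chaperones, coregulators, an enzyme that activates the hormone, and the mineralocorticoid receptor, 9 to 10 genes per class had enough UMIs. In neutrophils 4 of 9 were called higher and 0 lower, with a median log2 ratio of 0.98, and Hsp90ab1, an HSP90 chaperone, stood at 1.96. In macrophages 0 of 10 were called higher and 1 lower, with a median of -0.29. Of 16 further genes that glucocorticoids induce, 8 of 14 were called higher and 0 lower in ILC2s, with a median of 1.09, and 4 of 10 higher and 0 lower in B cells, with a median of 0.62. It gave 3 higher and 0 lower of 14 in T cells and 4 higher and 1 lower of 12 in NK cells, with medians of 0.20 and 0.28. In myeloid classes, 5 higher and 3 lower of 16 were called in monocytes, 5 and 2 of 16 in macrophages, 2 and 2 of 13 in neutrophils, and 1 and 4 of 16 in DCs, with medians of 0.42, -0.35, -0.60, and -0.26. Nfkbia, which encodes an inhibitor of NF-κB and is itself an NF-κB target, was above 0 in all 8 classes, from 0.65 in DCs to 3.20 in B cells. Cxcr4, a chemokine receptor, was above 0 in ILC2s, at 1.14, and below 0 in the other 7 classes, from -2.20 in neutrophils to -0.04 in T cells.

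**Figure D4:**
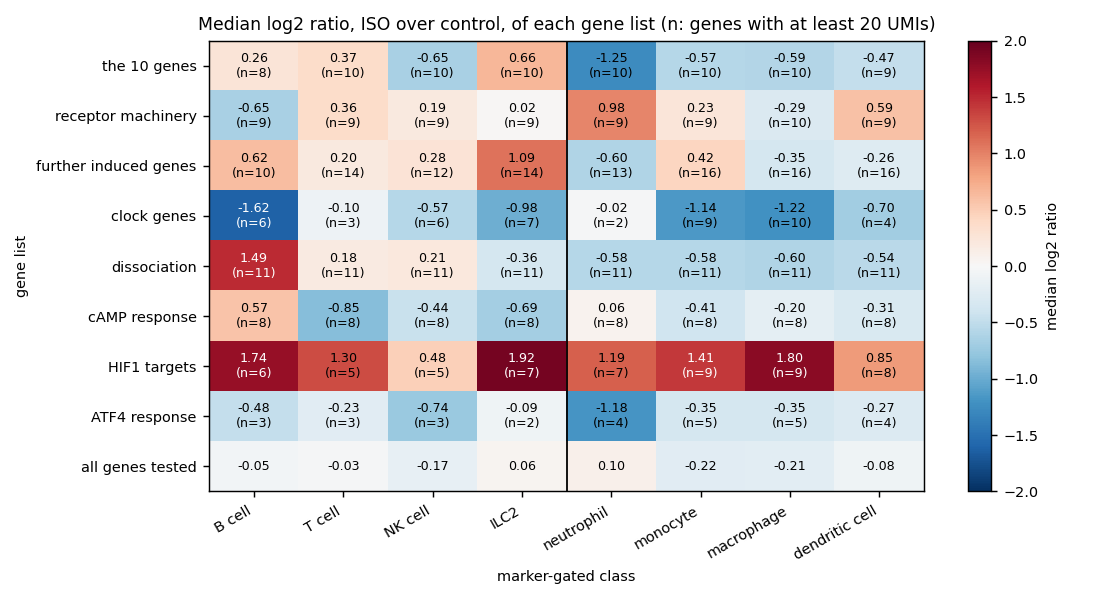
Median log2 ratio of ISO over control for the 10 genes and for lists of related genes (rows) in each class (columns), with the number of genes that had at least 20 UMIs. The bottom row gives all genes tested, and the HIF1 list is above 0 in each class, from 0.48 in NK cells to 1.92 in ILC2s.

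Other programs that share targets with the receptor moved as well, and their part in the results was not tested. Their counts stand beside the same shares of all genes, given by class above. Of 9 HIF1 targets, which respond to low oxygen, 7 were called higher in macrophages, 6 in monocytes, and 3 of 8 in DCs, with medians of 1.80, 1.41, and 0.85, beside the higher Ddit4 in these classes. In neutrophils, where the summed level of Ddit4 was lower, 3 of 7 were called higher and 0 lower, with a median of 1.19. In lymphoid classes, 5 of 7 were called higher in ILC2s, 4 of 5 in T cells, 2 of 6 in B cells, and 2 of 5 in NK cells, and 0 lower. Of 10 clock genes other than Per1, 6 were called lower and 1 higher in macrophages and 3 of 9 lower in monocytes, with medians of -1.22 and -1.14. In ILC2s 2 of 7 were called lower and 1 higher, and 1 each was called lower in NK cells and DCs. In neutrophils 0 of 2, in B cells 0 of 6, and in T cells 0 of 3 were called, with medians of -0.02, -1.62, and -0.10. Nr1d2, a clock repressor, was below 0 in all 8 classes, from -1.64 in DCs to -0.66 in T cells. Of 11 immediate early and heat shock genes that tissue dissociation induces, 7 were called higher in B cells and 1 in T cells, with 0 lower and medians of 1.49 and 0.18. In NK cells 1 was called higher and 1 lower, and in ILC2s 0 higher and 2 lower, with medians of 0.21 and -0.36. Of the same 11 genes, 5 were called lower in macrophages, 4 in neutrophils, where 1 was called higher, 3 in monocytes, and 2 in DCs, with medians from -0.60 to -0.54. Of all genes, 16.9%, 12.3%, 12.7%, and 9.66% were called lower in these classes, in the same order. Fos stood at 1.48 in B cells, 0.62 in NK cells, 0.48 in T cells, and 0.37 in ILC2s, and at -1.08 in neutrophils, -0.72 in monocytes, -0.67 in DCs, and -0.49 in macrophages, the same signs as Dusp1. Of 8 genes of the cAMP response, none was called in NK cells or DCs, 4 were called lower in T cells, 2 were called higher in macrophages, and B cells, ILC2s, neutrophils, and monocytes had calls in both directions. The ATF4 response list had 3 of 4 genes called lower in neutrophils, with a median of -1.18, beside the lower summed level of Ddit4 there. In macrophages 1 of 5 was called higher, and the other classes had 0 calls. The medians were also below 0 where Ddit4 was called higher. They were -0.74 in NK cells, -0.23 in T cells, -0.09 in ILC2s, -0.35 in monocytes and in macrophages, and -0.27 in DCs.

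The genes whose levels ran most like those of the receptor were found by Pearson's r of log2(CPM + 10) over the 16 sums of class and library, among 3565 genes that reached 100 CPM in at least 1 sum. These points share libraries and differ in depth, so r is a description. For Nr3c1 they were Itpr2, with r = 0.906, Zfp652, with r = 0.906, Cd82, with r = 0.903, Ncoa2, with r = 0.897, and 4932438A13Rik, with r = 0.897. Ncoa2, a coactivator that binds the receptor, was also on the list of receptor machinery. For Tsc22d3 they were Med13, with r = 0.880, Crebrf, with r = 0.876, Tcp11l2, with r = 0.861, Eif2ak3, with r = 0.861, and H3f3a, with r = 0.846. For Txnip they were Jund, with r = 0.844, Zfp652, with r = 0.827, mt-Nd2, with r = 0.795, Rcsd1, with r = 0.779, and Fam63b, with r = 0.767. Between Nr3c1 and the other 9 genes, r was 0.687 for Txnip, 0.683 for Per1, 0.585 for Zbtb16, and 0.373 for Tsc22d3, and it ran from -0.337 for Sgk1 to 0.225 for Klf9 for the rest.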

How the data were processed

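Per the labels and the study's methods, the authors used UMI-tools 1.0.0 to find barcodes and UMIs, aligned reads to mm10 with STAR 2.7.3a, and assigned them to genes with featureCounts 1.6.4. The deposited values are raw UMI counts per gene and barcode, without normalization, given by gene symbol only. The 10 genes and all lists were chosen with earlier results of these data known.

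Kept cells had over 500 and under 6000 genes, with mitochondrial UMIs below 25%. For each marker list, the CPM of a cell was divided by the 99th percentile over the kept cells of both libraries. A cell joined the class with the highest ratio if this was at least 0.1, at least 2 markers were detected, and every list of a class that is not a neighbour was at most 1/3 of it. For lymphoid cells and neutrophils, the macrophage ratio was at most 0.1. No doublet caller was run, and barcodes with markers of 2 lineages were left out in its place. Classes had from 77320 to 16719332 UMIs per library.

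Counts were summed per class and library. Levels have exact Poisson intervals, ratios exact conditional binomial intervals, shares exact Clopper-Pearson intervals, and lineage means, which weight the 4 classes equally, intervals by the delta method, all at 95%. All 10 genes are named with values, and other lists by counts, medians, and some of the 4 members with the highest CPM. The ratio step was tested on simulated data. Python 3.11.15, numpy 2.4.6, scipy 1.17.1, pandas 2.3.3, and matplotlib 3.10.9 were used. Gene spans and promoters are from GENCODE and RefSeq on GRCm38, the assembly of mm10. Alternatives varied the gate, scaling, weight of cells, depth, cell filters, and the UMIs added.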

Additional observations from a re-analysis of the deposited data

Results flagged for a closer look

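Dusp1 stood out because its ratio was above 0 in every lymphoid class and below 0 in every myeloid class, with lineage means that differed by 1.22 on the log2 scale. The difference was not tested, since each group had 1 library. The ratio in NK cells was -0.01, -0.02, and -0.03 with a macrophage marker limit of 0.05, with equal weight for each cell, and without the top 5% of barcodes by UMIs. In ILC2s it was -0.21 with equal weight for each cell and -0.07 when cells were thinned to 1000 UMIs. Over all alternatives it ran from 0.42 to 1.20 in B cells and from 0.08 to 1.52 in T cells.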

How the results depend on the processing

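Over 17 alternatives, 6 of them chosen after seeing the data, the lymphoid mean stayed above 0, the myeloid mean below 0, and their difference above 0. The lymphoid mean was 0.0567 and the difference 0.38 when barcodes with markers of 2 lineages were kept, and the myeloid mean was -0.28 when ratios were centred on the median of all genes. With cells thinned to 1000 UMIs before summing, the lymphoid mean was 0.59 and the myeloid mean -0.23 (-0.47 to 0.00). Of the alternatives chosen after seeing the data, the myeloid mean was -0.48 with monocytes and macrophages joined, -0.21 without neutrophils, and -0.20 without Zbtb16. The lymphoid interval also included 0 without mitochondrial genes and the 20 highest genes in the totals, at 0.16 (-0.03 to 0.34). The cause of these shifts was not tested.

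Of 36 calls, 18 stayed at a log2 ratio of at least 1 in size under every alternative run, and all 586 values of called pairs kept their sign. Part of this was fixed in advance. Joining monocytes with macrophages, or leaving out B cells, neutrophils, or Zbtb16, only dropped pairs and left the values of the others as they were. Among all 80 pairs, 20 changed sign under some alternative, and none of these was called. No paired analysis was possible because each group had 1 library. Depth limits B, T, and NK cells most, with 15, 46, and 29 ISO cells. Shallow genes such as Zbtb16, Klf9, and Ddit4 had as few as 0, 3, and 1 UMIs in a sum.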
